A study of Mus musculus with 6 samples.

Results

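The regions described here were listed at identical coordinates with both of 2 short hairpin RNAs against Plcg1 in murine erythroblasts at 0 h of differentiation, and overlapped no region listed with either hairpin at 24 h. They were chosen from the peak lists themselves: a region belonged if its chromosome, start and end were the same in the 0 h lists of hairpin 133 and hairpin 14 and if no peak of the 24 h lists of these hairpins covered 1 bp or more of it. There were 573 such regions among 12963 listed peaks at 11289 distinct positions. They made up 14.7% of the 3900 peaks of hairpin 133 at 0 h (exact binomial 95% interval 13.6 to 15.8%) and 16.7% of the 3437 peaks of hairpin 14 at 0 h (15.4 to 17.96%). The 24 h lists held 2960 peaks for hairpin 133 and 2666 for hairpin 14. Because the overlap of the lists chose the regions, these shares describe the choice and were not tested.

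All libraries came from I/11, a line established from fetal liver of p53-deficient mouse embryos at day 12.5, so every group, the controls included, lacks normal p53 and stems from 1 line. Cells were infected with lentivirus carrying hairpin 133, hairpin 14 or a scrambled hairpin, selected with puromycin for 48 h, and taken 72 h after infection from expansion medium with 1 U/ml erythropoietin (Epo), 100 ng/ml stem cell factor and dexamethasone (0 h), or at 96 h after infection, following 24 h in medium with 10 U/ml Epo and transferrin and without the other factors. Each of the 6 combinations of hairpin and time is 1 library. The peak lists of the scrambled hairpin were not used here. With 1 library per group there is no replicate check on any statement below, and each test compares lists of regions, not conditions.

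Plcg1 encodes phospholipase C gamma 1, which cleaves a membrane phospholipid into inositol trisphosphate and diacylglycerol and so raises calcium and activates protein kinase C downstream of receptors such as the Epo receptor. Methyl-CpG immunoprecipitation captures sonicated DNA with a methyl-CpG binding domain. The fraction eluted at high salt holds fragments that are both methylated and dense in CpG, the dinucleotide at which mammalian DNA is methylated. Many CpG-dense stretches in mammals are CpG islands at gene starts, which are usually unmethylated. Whether a listed region holds more or less methylated DNA than a control, and what the peaks were called against, could not be learned from the labels. A region is therefore only listed or not listed, with no direction, and read depth is unknown.

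Most of the regions lay away from gene starts, but 36 touched one of the annotated promoter windows (250 bp before to 50 bp after a gene start in RefSeq on GRCm38.p6, whose coordinates are those of mm10). The sequences below are those parts of the regions that fall before a gene start and outside every annotated gene. They are shown because the assay selects for CpG: each stretch is read 5′ to 3′ on the strand of the gene, and capitals mark each CpG. The first 3 belong to genes of the lists described further on, namely Fbln5 (chr12:101819120-101819221, minus strand), which encodes the elastic fibre protein fibulin 5, Six6 (chr12:72939632-72939747, plus strand), a homeobox gene of eye and pituitary, and E2f6 (chr12:16810715-16810799, plus strand), a repressor of the E2F family. The next are the CpG-richest of the others, predicted genes and unnamed clones left out, at Ntsr1 (chr2:180499837-180499975, plus strand), a neurotensin receptor gene, Otulinl (chr15:27681639-27681789, minus strand), Crybg1 (chr10:44148988-44149078, minus strand), Lyzl4 (chr9:121642122-121642270, minus strand), a lysozyme-like gene, and Bcar3 (chr3:122419530-122419680, plus strand), an adaptor gene.
Fbln5: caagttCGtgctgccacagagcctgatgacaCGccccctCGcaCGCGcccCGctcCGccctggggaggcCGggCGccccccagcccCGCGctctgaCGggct
Six6: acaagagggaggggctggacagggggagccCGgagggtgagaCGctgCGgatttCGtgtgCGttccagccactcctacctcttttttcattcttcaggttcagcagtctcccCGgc
E2f6: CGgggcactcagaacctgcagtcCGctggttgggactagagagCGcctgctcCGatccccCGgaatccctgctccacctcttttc
Ntsr1: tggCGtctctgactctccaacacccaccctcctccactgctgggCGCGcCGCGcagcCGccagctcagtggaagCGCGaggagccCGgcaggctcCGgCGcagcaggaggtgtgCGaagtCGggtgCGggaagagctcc
Otulinl: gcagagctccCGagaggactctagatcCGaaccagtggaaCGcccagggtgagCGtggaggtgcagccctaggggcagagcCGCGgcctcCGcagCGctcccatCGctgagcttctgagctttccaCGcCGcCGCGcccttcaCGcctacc
Crybg1: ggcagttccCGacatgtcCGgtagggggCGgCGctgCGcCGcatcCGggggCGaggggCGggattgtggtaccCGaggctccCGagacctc
Lyzl4: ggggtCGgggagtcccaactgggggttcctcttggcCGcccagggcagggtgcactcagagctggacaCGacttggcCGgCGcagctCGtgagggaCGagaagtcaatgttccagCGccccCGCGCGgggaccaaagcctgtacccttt
Bcar3: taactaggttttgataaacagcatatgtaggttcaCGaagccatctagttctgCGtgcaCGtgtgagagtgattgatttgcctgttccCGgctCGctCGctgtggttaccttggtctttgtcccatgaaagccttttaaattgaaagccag

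These stretches carried 12 CpG in 102 bp at Fbln5, 14 in 139 bp at Ntsr1, 14 in 151 bp at Otulinl, 11 in 91 bp at Crybg1 and 11 in 149 bp at Lyzl4, against 6 in 116 bp at Six6, 5 in 85 bp at E2f6 and 6 in 151 bp at Bcar3. The Bcar3 and Otulinl stretches are whole regions, while the stretch at Fbln5 is the part of the region that lies before the start. At 24 h the peak nearest to the E2f6 region was 1072 kb off in the hairpin 133 list and 618 kb off in the hairpin 14 list, and the distances from the Six6 region were 110 and 65.02 kb. At Otulinl the nearest peak of hairpin 14 lay 0.191 kb off and that of hairpin 133 304 kb off, and at Lyzl4 the nearest peak was 0.547 kb off for both. A region absent from the 24 h lists could thus have a close neighbour there (Lyzl4) or a very distant one (E2f6).

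The distance to the 24 h lists varied widely, as the plot of distances to the nearest 24 h peak shows. Its median was 78.2 kb (quartiles 18.97 and 248 kb), the smallest was 18 bp and the largest 6097 kb. To the hairpin 133 list alone the median was 154 kb, and to the hairpin 14 list alone 143 kb. Of the 573 regions, 47 (8.20%) had a 24 h peak within 1 kb, 99 (17.3%) within 10 kb, and 251 (43.8%) had none within 100 kb. Among the 47 close ones, 20 were near a peak of both 24 h lists, 11 near one of hairpin 133 only and 16 near one of hairpin 14 only. Of these 47 regions, 28 (59.6%) lay within 1 kb of a start or an end of a protein-coding gene.

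**Figure D1:**
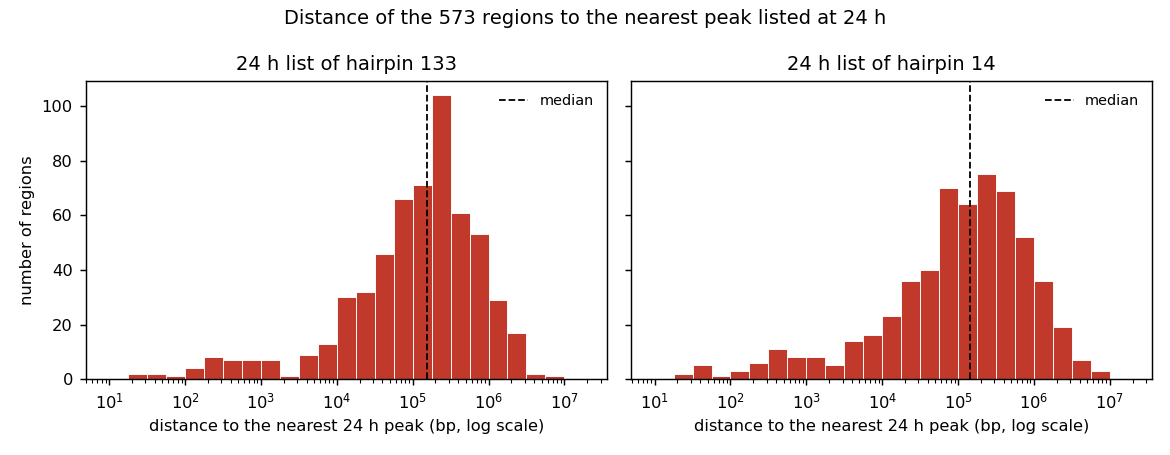
Distance of each of the 573 regions to the nearest peak of the 24 h list of hairpin 133 (left) and of hairpin 14 (right); the x axis is the distance in bp on a log scale, the y axis the number of regions, and the dashed line the median (154 kb and 143 kb). Most regions lie over 10 kb from any 24 h peak, with a small group within 1 kb (31 for hairpin 133, 36 for hairpin 14).

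At the edge of the rule, regions just inside and just outside it differed by few bases. The regions with the smallest gap to a 24 h peak were in Prkg1 (chr19:31664486-31664636, 18 bp), the gene of cGMP-dependent protein kinase 1, beside Spryd7 (chr14:61557316-61557466, 27 bp) and in the cell adhesion gene Cadm1 (chr9:47530869-47531019, 35 bp). Same-coordinate regions that the rule left out with the smallest overlap lay beside Rhoc (chr3:104788760-104788910, 19 bp), in Ccnd1, the cyclin D1 gene (chr7:144939699-144939849, 24 bp), and near Zfp119b (chr17:55932203-55932353, 25 bp). In all, 384 same-coordinate 0 h regions on placed chromosomes overlapped a 24 h peak, 234 of them a peak of both hairpins, with a median overlap of 142 bp of a region of 151 bp. Only 13 of the 384 were covered by less than 50% of their width, so few regions sit close to the edge from that side. The 573 were 59.8% of the 958 same-coordinate 0 h regions (56.6 to 62.9%). Built the same way at 24 h, 318 of 691 same-coordinate regions (46.0%, 42.3 to 49.8%) overlapped no 0 h peak.

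Few regions lay close to another. With neighbours joined at under 10 kb, 551 stood alone and 11 pairs formed, with none longer; the median gap between neighbours on a chromosome was 1936 kb. The pairs included those at Hoxb8, Pax7 and Irx5, which encode homeodomain factors, at Ptprr, a receptor phosphatase gene, at Dpysl5, a neuronal growth cone gene, at Il34, a cytokine that binds the receptor of macrophage colony-stimulating factor, at Panx1, a membrane channel gene, and at Edem3, Sipa1l1 and Prss36. The 2 regions at Panx1 were 40 bp apart, the closest of all.

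By centre, 327 regions (57.1%, 52.9 to 61.2%) lay in the body of a protein-coding gene, 55 (9.60%) only in the body of another gene, of which 49 were long non-coding RNA genes, 86 (15.01%) within 10 kb of a gene and 105 (18.3%, 15.2 to 21.7%) farther away. Exons, introns and untranslated regions could not be told apart, since the gene table used gives only the ends of each gene. Within 1 kb of a start or an end of a protein-coding gene lay 123 regions (21.5%, 18.2 to 25.1%). Gene starts were given for no gene of chromosome 18 and not for every gene elsewhere, so shares near a start are lower limits. Among the 556 regions off chromosome 18, 53 (9.53%) had their centre within 500 bp of a given start. Within 1000 bp there were 85 (15.3%) and within 10 kb 169 (30.4%). The median distance to a given start was 38.9 kb, an upper limit for the same reason. To any start or end of a protein-coding gene the median was 13.4 kb over the 573 regions.

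Inside genes of known strand, 95 of 245 regions (38.8%) fell in the first 20% of the gene's length and 38 (15.5%) in the last 20%, with 34, 43 and 35 in the 3 steps of 20% between. For the 323 regions with their centre in a single protein-coding gene, the median length of that gene was 91.7 kb. A gene with several regions was counted for each of them. Over all 21887 protein-coding genes, each counted a single time, the median was 17.2 kb. The gene exceeded 100 kb for 47.1% of the 323 regions, and 11.1% of all genes did so. Long genes offer more positions for a region, and counts per gene below were not adjusted for length.

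For comparison, 4 other sets of regions served: the 384 same-coordinate 0 h regions that overlapped a 24 h peak, 236 regions of both hairpins at 0 h whose coordinates were offset and that had no 24 h peak, the 318 same-coordinate regions of 24 h only, and 4396 peaks of 1 hairpin only at 0 h without a 24 h peak. Regions were close to a gene start or end in 21.5% of the 573 and in 45.1% of those also listed at 24 h (difference of 23.6 percentage points, two-sided Fisher's exact test, adjusted over 16 tests, p = 1.80e-13). The share was 34.0% in the 24 h set (Fisher's exact test, adjusted p = 0.000168). It was lower than in the 573 among the offset regions, at 5.93% (Fisher's exact test, adjusted p = 5.67e-08), and among the peaks of 1 hairpin, at 8.96% (adjusted p = 9.99e-16). The 573 thus lay between the same-coordinate regions that were listed at 24 h and the 0 h regions that were not identical in both lists.

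Regions over 10 kb from any gene made up 18.3% of the 573, against 5.73% of those also listed at 24 h (Fisher's exact test, adjusted p = 2.92e-08) and 9.12% of the 24 h set (adjusted p = 0.000333). The shares in the offset set (17.4%) and among the peaks of 1 hairpin (17.9%) differed from it by 0.952 and 0.399 percentage points and did not pass (Fisher's exact test, adjusted p = 0.961 for each). A CpG-rich promoter window (observed over expected CpG of at least 0.6 and GC of at least 50%) was touched by 20 of 556 regions (3.597%, 2.21 to 5.50%), against 10.1% of those also listed at 24 h (Fisher's exact test, adjusted p = 0.000192), 1.15% of the peaks of 1 hairpin (adjusted p = 0.000168) and 0 of 228 offset regions, for which the exact upper limit is 1.60% (adjusted p = 0.00277). Against the 24 h set, at 6.82%, the difference missed the threshold (Fisher's exact test, adjusted p = 0.0585). The share in protein-coding gene bodies was 57.1%, against 70.1% in the 24 h set (Fisher's exact test, adjusted p = 0.000268), 64.1% in those also listed at 24 h (adjusted p = 0.0458), 57.2% in the offset set and 57.0% among peaks of 1 hairpin (adjusted p = 1 for both). Without chromosome 10, the difference from those also listed at 24 h was -5.95 points and no longer passed (Fisher's exact test, adjusted p = 0.126). Of the 16 tests, 11 passed.

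**Figure D2:**
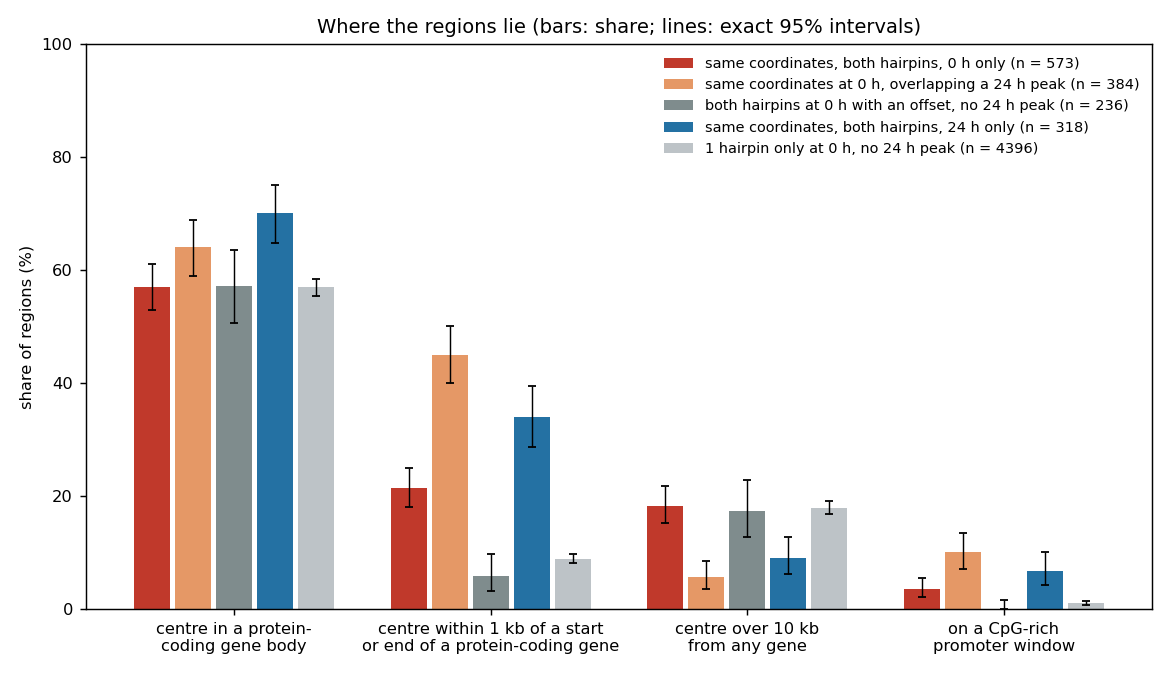
Share of regions (y axis, percent) in a protein-coding gene body, within 1 kb of a start or end of such a gene, over 10 kb from any gene, and on a CpG-rich promoter window, for the 573 regions and the 4 comparison sets; lines are exact 95% intervals, which cover counting error only. Near gene starts and ends the 573 regions (21.5%) stand between the same-coordinate regions also listed at 24 h (45.1%) and the peaks of 1 hairpin (8.96%).

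In measures that were not tested, the 573 also stood between these sets or beside the 0 h sets. The first 20% of the gene held 56.8% of those also listed at 24 h, 46.2% of the 24 h set, 24.3% of the offset set and 21.1% of the peaks of 1 hairpin, with 38.8% for the 573. The median length of the host genes, with a gene counted for each of its regions, was 37.0 kb for those also listed at 24 h and 49.2 kb for the 24 h set. Both were shorter than the 91.7 kb of the 573, while the offset set (90.5 kb) and the peaks of 1 hairpin (93.9 kb) were close to it.

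The 36 regions at promoter windows touched 40 windows of 38 genes. These windows held a median of 19 CpG per 300 bp (5 to 35), and 22 (55%) were CpG-rich, while all 32851 windows of the table had a median of 7 CpG, and 33.5% were CpG-rich. The window of Antxr2, an anthrax toxin receptor gene whose start lies 2 bp from a region's centre, had the most, 35 CpG. Zfp111 (zinc finger protein 111) had the fewest, 5. The letters AGATAA, the core of the GATA motif, read on both strands, were in 1 of the 40 windows (2.5%, at Rgs3) and in 11.2% of all windows. The comparison sets were also below the share of all windows. AGATAA was in 1.67% of the windows of same-coordinate regions listed at both times and in 0% for those of 24 h only. It was in 5.36% for the peaks of 1 hairpin and in 0 of 4 windows of the offset set. CCACACCC, the erythroid Klf motif, was in 1 (at Tph1) and in 3.56% of all. GGGCGG, a GC box, was in 30 (75%) and in 35.7% of all. GGGCGG was also in 56.7% of the windows of same-coordinate regions listed at both times, whose median was 21 CpG, and in 54.5% of those of same-coordinate regions of 24 h only, with 24 CpG. For the peaks of 1 hairpin it was in 56.25%, with 15 CpG, and for the offset set in 50% of only 4 windows, with 7 CpG. The motif contains a CpG, its relation to the CpG content of the windows was not tested, and a match is not a binding site.

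Along the chromosomes, chromosome 12 held 58 of the 573 regions (10.1%) against 5.62% of the 5804 other 0 h peaks, a ratio of 1.80 (two-sided Fisher's exact test, p = 0.00128 after adjustment over 20 chromosomes), while its length is 4.56% of the span. The share was 9.38% in those also listed at 24 h, 8.18% in the 24 h set, 5.55% among peaks of 1 hairpin and 1.69% in the offset set. On chromosome 12, 9 regions lay near a gene start or end and 35 in gene bodies. The X chromosome held 2 regions (0.349%) against 1.91% of other 0 h peaks (ratio 0.183, Fisher's exact test, adjusted p = 0.0397). Its share was also low in those also listed at 24 h (0.260%) and in the 24 h set (0.629%). It was 1.96% among peaks of 1 hairpin and 3.39% in the offset set. Chromosome 10 held the most, 72 (12.6%), against 9.99% of other 0 h peaks, a difference that did not pass (ratio 1.26, Fisher's exact test, adjusted p = 0.399). Set against the peaks of 1 hairpin alone (8.92%) it passed (ratio 1.41, Fisher's exact test, adjusted p = 0.0398). The chromosome 10 share was higher still in those also listed at 24 h (14.3%) and in the 24 h set (14.8%), and was 8.90% in the offset set. No other chromosome passed.

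**Figure D3:**
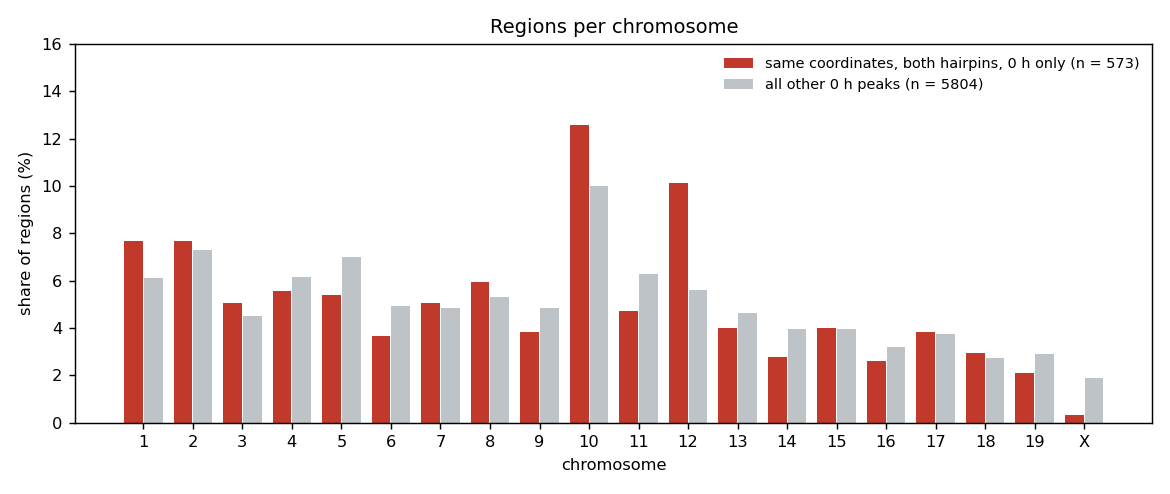
Share of the 573 regions and of the 5804 other 0 h peaks on each chromosome (y axis, percent of the set). Chromosome 12 (10.1% against 5.62%) and the X chromosome (0.349% against 1.91%) were the only ones past the adjusted threshold.

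Of 537 bins of 5 Mb, 289 held a region. The fullest, with 13, ran from 115 to 120 Mb of chromosome 10 and included Tph2, the neuronal tryptophan hydroxylase, Lgr5, Tspan8, Ptprr with 2 regions, Cpm (carboxypeptidase M) and Grip1, a glutamate receptor scaffold. The bin from 70 to 75 Mb of chromosome 12 held 11, with 3 in Prkch, 2 in Rtn1 (reticulon 1) and 1 each at Six6 and Six4. The next bins held 10 each. One, from 105 Mb of chromosome 12, had regions in Bcl11b, Eml1, Cyp46a1 and Papola and 1 at 23.3 kb from Dlk1. The other, from 165 Mb of chromosome 2, had regions in Cd40, Ripor3 and, with 2, Tshz2, and 1 beside Cebpb. In the order named, these bins also held 71, 35, 36 and 39 of the other 0 h peaks. The bin with the most regions was thus dense in other peaks too.

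Counting genes, 446 of 21887 protein-coding genes (2.04%) had a region in the body or within 10 kb, and 318 (1.45%) in the body alone. By comparison 12.7% and 11% of genes had any peak of hairpin 133 or 14 at 0 h, and 10.5% and 9.72% at 24 h. Those also listed at 24 h touched 1.96% of genes, the 24 h set 1.48%, the offset set 0.822% and the peaks of 1 hairpin 13.4%. Of the 446 genes, 416 had 1 region, 28 had 2 and 2 had more. In 240 of them (53.8%) no 24 h peak of either hairpin lay in the same window, while 206 (46.2%) had another peak at 24 h, 87 of these with both hairpins. Plcg1 itself (chr2:160731310-160775760) had 0 peaks in its window in all 4 lists, and the nearest of the 573 regions was 2064 kb away in Ppp1r16b, a phosphatase regulator gene (chr2:158667168-158667318).

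Pcdh15, a very long protocadherin gene of hair cell tip links, held the most, 5 regions. The 0 h lists of hairpins 133 and 14 had 25 and 15 peaks there and the 24 h lists 14 and 13, so the 5 are a minority of its peaks. Their distance to the next 24 h peak was 6.73 to 72.5 kb, and the same for both hairpins at each region. Prkch, the gene of protein kinase C eta, a diacylglycerol-activated kinase, held 3 regions, with 6 and 5 peaks at 0 h (hairpins 133 and 14) and 5 and 2 at 24 h. Both genes thus had peaks at 24 h as well, at other positions.

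Among genes with 2 regions, some had no 24 h peak in either list. Bin1, a membrane-bending protein gene, Hephl1, a multicopper oxidase gene whose window covers the pair at Panx1, and Hoxb7 had 2 peaks with each hairpin at 0 h and 0 and 0 at 24 h. Gsg1l, an AMPA receptor auxiliary subunit gene, had 2 and 3 at 0 h and none at 24 h, and Nek9, a mitotic kinase gene, 3 and 2 and none. In Gsg1l the nearest 24 h peaks were 272 kb (hairpin 133) and 536 kb (hairpin 14) from the closer region.

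Others had a 24 h peak in the body or within 10 kb of the gene, at varied distances from the 0 h regions. Irx5 had 2 and 3 peaks at 0 h and 3 and 3 at 24 h, with one region 0.189 kb from a 24 h peak of both hairpins. Lgr5, an R-spondin receptor of stem cells, had 6 and 7 at 0 h and 5 and 2 at 24 h, Ntn4 (netrin 4) 5 and 4 against 2 and 3, and Dip2a 2 and 3 against 2 and 2. Dpysl5 had 3 and 2 against 1 and 1, the nearest 0.275 kb away. Hoxb8 and Hoxb9 (2 and 3 at 0 h), Il34 (2 and 2), Iqsec3 (3 and 2) and Maml3 (3 and 4), a Notch coactivator gene, had 0 peaks with hairpin 133 and 1 with hairpin 14 at 24 h; at Maml3 that peak was 149 kb from the nearer region. Mdga1 (2 and 2) had 0 and 2, and Ak5, an adenylate kinase gene, 1 and 0. At 24 h the lists of the hairpins therefore differed at Lgr5 (5 and 2 peaks) and Ntn4 (2 and 3). They also differed at Hoxb8, Hoxb9, Il34, Iqsec3, Maml3, Mdga1 and Ak5, each by 1 or 2 peaks. The windows of Hoxb8 and Hoxb9 overlap, so the same peak can count for both. There was no replicate to set these differences against.

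**Figure D4:**
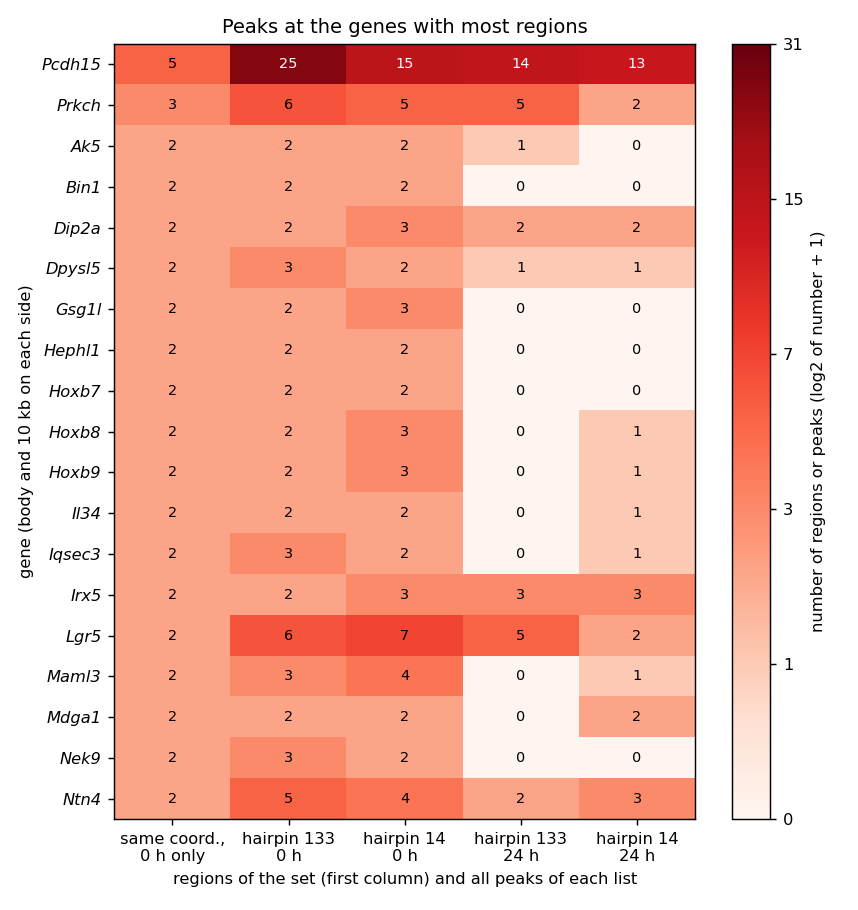
Number of regions of the set (first column) and of all peaks of each list (other columns) in the body or within 10 kb of genes with most regions; colour is log2 of the number plus 1. Pcdh15 has 5 regions among 25 and 15 peaks at 0 h, and Bin1, Gsg1l, Hephl1, Hoxb7 and Nek9 have no peak at 24 h.

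Gene families were then counted over 33 lists with 4808 genes in all, of which 115 (2.39%) had a region, against 2.04% of all protein-coding genes. The olfactory and vomeronasal receptors, 1460 of these genes with 2 hits, lower this share, and without that list it was 113 of 3348 (3.38%). The share was above 2.04% in 22 lists and at or below it in 11, 3 of which had none. No test was made, since the lists were chosen with earlier results of these data known, and neither gene length nor CpG density was matched.

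Hox genes, the clustered regulators of body axis identity, had the highest share: 7 of 39 (17.9%, 7.54 to 33.5%). These rested on only 4 distinct regions, since neighbouring Hox genes share windows. The interval takes the genes as independent and is therefore too narrow. A pair of the regions, chr11:96282347-96282497 and chr11:96285259-96285409, served Hoxb6, Hoxb7, Hoxb8 and Hoxb9. Another lay 1484 bp from a start of Hoxc4. Counted once at its nearest gene, each region left 3 Hox genes, and by gene body alone there were also 3. Those also listed at 24 h touched 9 Hox genes.

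Homeobox and paired genes outside the Hox clusters had a region at 18 of 240 (7.5%, 4.51 to 11.6%) through 20 regions, and 27 for those also listed at 24 h. By gene body alone 9 of 240 (3.75%) had one, against 1.45% of all genes. Pax7, a factor of muscle progenitors, had 2 regions, one with its centre 82 bp from a start, with 4 and 3 peaks at 0 h and 1 and 0 at 24 h. Six6 had a region 210 bp from its start, with 2 and 2 peaks at 0 h and 0 and 0 at 24 h. Irx2 (220 bp outside the gene on its 5′ side), Lhx1 (1087 bp from its start), Barhl2 (1151 bp), Pax2 and Otp, factors of kidney and neural development, had 1 region each. Of the 18 genes, 13 also had a 24 h peak in the window, against 206 of all 446 genes with a region (46.2%). Examples were Barhl2 (2 and 2 peaks at 0 h, 1 and 3 at 24 h), Pax2 (3 and 3, then 2 and 3) and Irx2 (2 and 2, then 1 and 1).

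Among Zfp zinc finger genes a region was found at 11 of 397 (2.77%), through 10 regions. Of these 11, 7 had no 24 h peak, as did 240 of all 446 genes with a region (53.8%). Zfp111 had a region 92 bp from its start, and Zfp607b 1001 bp from its start, and 1 region served Zfp65 and Zfp85. By gene body alone, 7 Zfp genes were left. Sox, T-box and forkhead genes had 5 of 79 (6.33%), and 2 by gene body alone. They were T (brachyury), 281 bp from its start with 3 and 2 peaks at 0 h and 0 and 1 at 24 h, Sox12, Sox13, Tbx20, a heart factor, and Sox6. A list of zinc finger factors, with the GATA, Klf, Sp and Prdm families and others such as Zic, Gli and Bcl11, had 4 of 69 (5.80%), namely Gata3, the Prdm family gene Mecom, Zic2 and Bcl11b. All 4 had a 24 h peak in the window, against 46.2% of all 446 genes with a region. Basic helix-loop-helix factors had Sim2 and Npas3 (2 of 72), and nuclear receptors Nr2f2 (1 of 40).

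In families of the cell surface and signalling, channel genes had 9 of 184 (4.89%). These included the potassium channel genes Kcnj4, Kcnj9, Kcna2 (360 bp from a start), Kcnh5 and Kcnq5 and the calcium channel subunit Cacnb3, and also Ano2 and Ano4, which encode chloride channels or scramblases. Transmitter receptor genes had 5 of 103 (4.85%), the glutamate receptor subunits Gria4 (531 bp from its start), Grin1 and Grin2b, the GABA receptor subunit Gabbr2 and the adrenergic receptor Adra1d. Wnt ligands and receptors had 3 of 53, Lgr5, the secreted inhibitor Wif1 and the receptor kinase Ror2. Axon guidance genes had 3 of 72, Ntn4 (604 bp from its start), Efna3 and Plxna2. Cadherins had 3 of 115, Pcdh15, Cdh3 and Cdh13, and those also listed at 24 h touched 22, a count in which clustered protocadherins with overlapping bodies can share a region. A list of 125 G protein-coupled receptor genes, mainly the Gpr and Adgr families, had 1 (0.8%) with a region. This was S1pr1, the sphingosine 1-phosphate receptor gene, 305 bp from a boundary of the gene. The list does not hold the whole receptor class: Adra1d, Gabbr2 and Lgr5, counted in other lists, and Ntsr1, in none, also had a region. Notch2 was the only gene of 108 (0.926%) in the Fgf, Bmp, hedgehog and Notch list.

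Phosphatases had 5 of 150, with 2 regions in Ptprr and 1 in Ppp1r16b, 108 bp from a start. Collagens, laminins and matrix proteases had 5 of 147, with Fbln5, Col26a1, Mmp15, Adam18 and Lama1. Solute carriers had 8 of 389 (2.06%), with the region at Slc6a2, the noradrenaline transporter gene, 33 bp from a boundary of the gene, and a region in Slc38a4, an imprinted amino acid transporter gene. Interleukins and their kin had 2 of 204 (Il34 and Tnfrsf23), cytochrome P450 genes 2 of 99 (Cyp4x1 and Cyp46a1) and keratins 0 of 53. Olfactory and vomeronasal receptors had 2 of 1460 (0.137%), Olfr70 and Olfr71, through 1 region.

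In the lists of the blood lineages, counts were small (0 to 3 genes). The exact interval of each share held the 2.04% of all genes, so no lineage stands out. Globin, haem and iron genes had 0 of 47 (upper limit 7.55%) and red cell membrane genes 0 of 43 (8.22%), where the share of all genes would give 0.958 and 0.876 genes. These genes were not free of peaks. Any peak of hairpins 133 and 14 lay at 8 and 6 red cell membrane genes at 0 h and at 9 and 5 at 24 h. For globin, haem and iron genes the counts were 4 and 1, then 1 and 0. Of 40 erythroid factors 1 (2.5%) had a region, Sox6, a repressor of embryonic globin. It lay inside the gene at chr7:116034043-116034193, with 1 and 1 peaks at 0 h and 2 and 0 at 24 h. Of 62 genes of Epo and Kit signalling 1 (1.61%) had a region. The phospholipase C, protein kinase C and calcium list had 1 of 78 (1.28%), Prkch. For these lists the share of all genes would give 0.815, 1.26 and 1.59 genes, so the counts are near it. Lymphoid markers had 3 of 49 (6.12%, 1.28 to 16.9%), Pax5, a B-cell factor (2532 bp from its start, 2 and 1 peaks at 0 h and none at 24 h), Gata3 and Bcl11b, both T-cell factors that the zinc finger list also holds. Megakaryocyte and stem cell markers had 3 of 42 (7.14%, 1.50 to 19.5%). Gp1bb, a platelet glycoprotein gene, had 1 and 1 peaks at 0 h and none at 24 h, Vwf 1 and 2 and none, and Mecom, a stem cell factor, 1 and 1 and then 0 and 2. Mecom is also in the zinc finger list, and Pax5 in the homeobox and paired list. Of 48 myeloid markers (2.08%) Cebpb had a region, 614 bp from a boundary of the gene. A listed region is not a level of expression, and these lists carry no information on which cells were present.

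Of 62 genes of cell cycle, apoptosis and the p53 pathway, 1 (1.61%) had a region, E2f6, where the share of all genes would give 1.26. Imprinted genes had 2 of 54, Slc38a4 and Osbpl5, the latter through a region inside Tnfrsf23 (chr7:143685621-143685771). Neither had a 24 h peak, as was so for 53.8% of all 446 genes with a region.

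**Figure D5:**
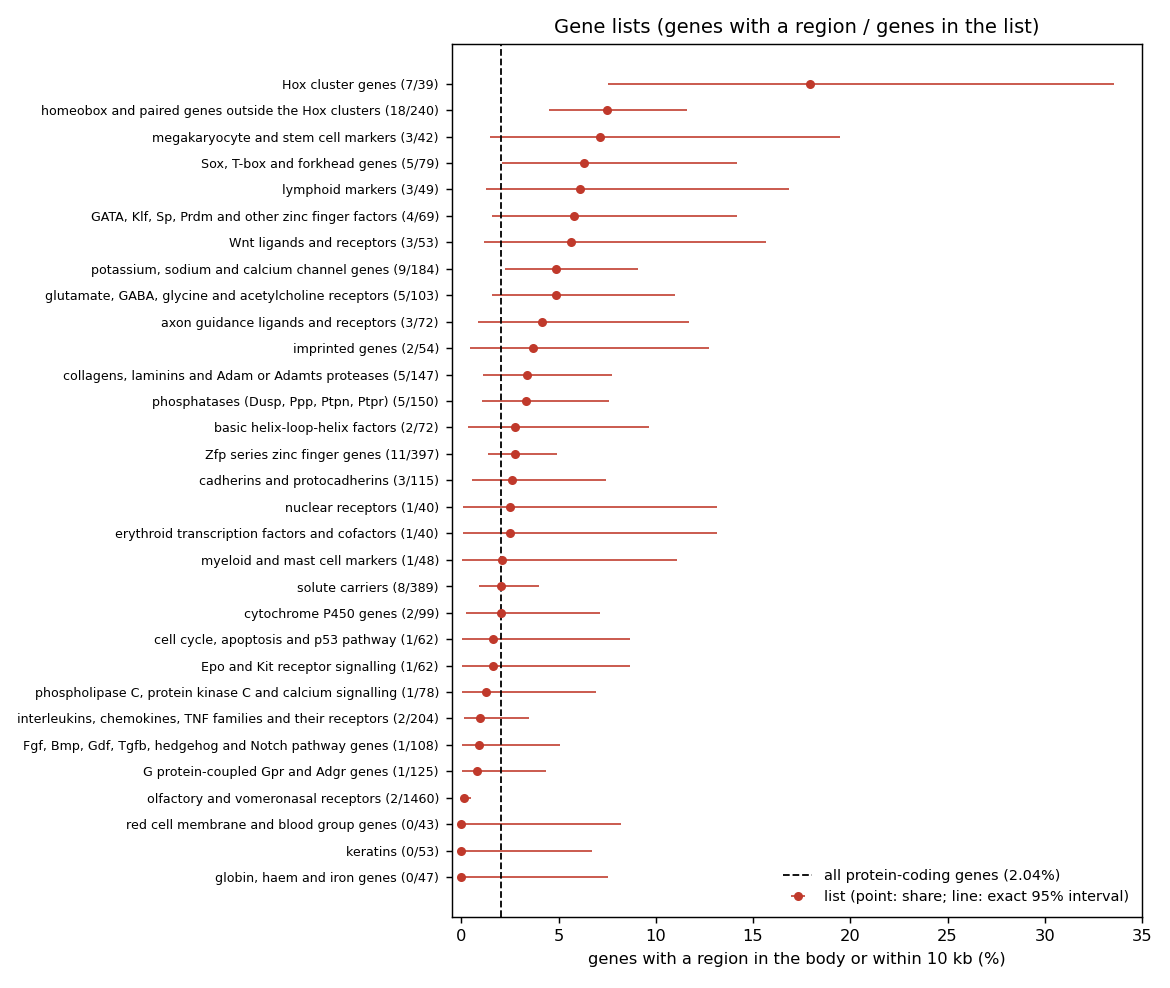
Share of the genes of each list shown (x axis, percent) with a region in the body or within 10 kb; lines are exact 95% intervals over genes and the dashed line is the share of all protein-coding genes (2.04%). Hox genes (7 of 39) and other homeobox genes (18 of 240) stand to the right, and olfactory receptors (2 of 1460) to the left. The intervals take genes as independent, so that of the Hox genes, which share regions, is too narrow.

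At gene starts, the closest region centres belonged to genes of varied function. Apart from Antxr2, regions lay 18 bp from a start of Spatc1l, 21 bp from one of Apom, an apolipoprotein gene, 26 bp at Layn, a hyaluronan receptor gene, 27 bp at Fbln5 and 32 bp at Rgs3, a regulator of G protein signalling. Of these, Antxr2, Spatc1l, Layn and Fbln5 each had 1 and 1 peaks at 0 h and 0 and 0 at 24 h, and Apom 1 and 2 and none. Next came Ntsr1 (64 bp), Tnfaip6 (66 bp), a hyaluronan-binding protein gene, Sv2c (69 bp), a synaptic vesicle gene, and Tph1 (71 bp), the peripheral tryptophan hydroxylase. Ntsr1 and Tnfaip6 had no 24 h peak, Sv2c had 1 and 0, and Tph1 2 and 1. Batf3, a dendritic cell factor (124 bp from its start, 34 CpG in the window), had 2 and 1 peaks at 0 h and none at 24 h.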

How the data were processed

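Methyl-CpG immunoprecipitation followed by sequencing was done on DNA of I/11 cells, per the labels' protocols on fragments of about 150 bp, and the DNA that 1 M NaCl released was sequenced. Each deposited list gives positions only (chromosome, start, end) and neither scores nor counts nor strand. BWA, HOMER, Picard and SAMtools and the build mm10 are named in the submitters' processing notes. Versions, roles, settings, the peak threshold and what peaks were called against are not given in the sources used here. The part that a control library common to both lists of a time could have in identical coordinates was not tested.

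Starts were read as 0-based and are printed 1-based. Every region is 151 bp wide. Peaks on unplaced contigs were left out of annotation. Genes came from a RefSeq table on GRCm38.p6 (49943 genes, 21887 protein-coding), and starts, strand and sequences from 32851 RefSeq promoter windows of that assembly, which cover no gene of chromosome 18 and not every gene elsewhere (strand for 17492 protein-coding genes). No sequence inside an annotated gene is printed. Two-sided Fisher's exact tests with Benjamini-Hochberg adjustment (threshold 0.05) compared annotation (16 tests) and chromosomes (20 tests), with regions as units that come from 1 library each, in Python 3.11.15 with pandas 2.3.3 and SciPy 1.17.1.

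The regions, the gene lists and the tests were chosen with earlier results of these data known. Named were Plcg1, the 20 genes with most regions (ties alphabetical), up to 8 genes per list by number of regions and then distance to a gene boundary, the genes whose starts lie nearest a region, up to 8 sequences, and the regions at the edge of the rule. Genes named for other reasons (those at the fullest bins and at pairs, and the promoter windows with most CpG, fewest CpG or a motif) were chosen after their values were seen. Predicted genes entered the counts without being named, and results for a few genes and lists within this rule are left out. Of the list symbols, 4 were not matched. Alternatives changed the tolerance on coordinates, the distance to 24 h peaks, the gene window and the near-gene distance, left out chromosome 10 and changed the comparison sets.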

Additional observations from a re-analysis of the deposited data

How the results depend on the processing

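With other settings the number of regions and most shares and tests kept their direction and their side of the threshold (65 of 76 summary values). The share of regions near a gene start or end was 18.1% when regions with a 24 h peak within 1 kb were left out, and by construction 13.4% with a distance of 500 bp and 28.1% with 2000 bp. Without chromosome 10, the difference in the share in gene bodies from those also listed at 24 h was -5.95 percentage points (Fisher's exact test, adjusted p = 0.126), and differences near 0 that had not passed changed sign: 0.809 points in gene bodies against the offset set (adjusted p = 0.869), and -0.974 and -1.12 points over 10 kb from genes against the offset set and the peaks of 1 hairpin (adjusted p = 0.798 and 0.663). With no peak of the other time within 1 kb, the gene body difference from the peaks of 1 hairpin was -0.936 points (adjusted p = 0.709), and the difference on CpG-rich windows from the 24 h set was -4.06 points and passed (Fisher's exact test, adjusted p = 0.0125). The cause of these changes was not tested. Windows of 50 kb gave 929 genes, and 211 of the listed genes, by construction more. Of the counts per gene list and the ratios per chromosome, 70 of 102 stayed within 1.5 times or on their side of the threshold, and with small numbers the others moved: Hox genes were 3 of 39 by body alone and 17 with 50 kb. No paired analysis was possible because the lists give positions without values per library, and the tests count regions and fit nothing over libraries. Depth is unknown, so no limit can be given for methylation that was not listed.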

Other observations

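Genes of small RNAs were not part of any list. Of the regions, 7 lay within 10 kb of an annotated microRNA gene, of which there were 8. The nearest was Mir6392, 134 bp from a region (chr15:84167986-84168136). A region at chr16:13448021-13448171 lay 1352 bp from Mir193b and 5669 bp from Mir365-1, neighbouring genes on chromosome 16. The others lay 7519 bp (Mir6351), 8720 bp (Mir6377), 8809 bp (Mir5127), 9481 bp (Mir5108) and 9803 bp (Mir3962) away. No comparison set was counted for these genes.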
